A study of Mus musculus with 17 samples.

Results

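Gad1, Gad2, Slc32a1 and Pvalb were followed through single cells of the mouse anterior thalamic nuclei and through tissue spots of brain sections. The 4 genes were found by symbol, and each matched 1 of the 52636 genes of the single-cell table and 1 of the 28692 genes of the spot table. All animals were wild-type mice, and the cells came from B6 mice. Cells were dissected from acute slices of the anterior thalamic nuclei, dissociated, collected by hand and barcoded at reverse transcription. Brain sections on Visium slides gave counts per spot in 1 anterior section (section 5) and 2 posterior sections (sections 2 and 6). The sections also held other regions, since some groups of spots described below were led by striatal or hypothalamic genes. A spot is a small area of tissue that can hold several cells, and the spots carried no positions or region names here. Spots with at least 1 count of Tcf7l2, a transcription factor of thalamic glutamatergic neurons, were set against spots with none.

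Gad1 and Gad2 encode the glutamate decarboxylases that make the inhibitory transmitter GABA from glutamate. Slc32a1 encodes the vesicular transporter that loads GABA and glycine into synaptic vesicles, so the label of GABA synthesis covers a transporter as well. Pvalb encodes parvalbumin, a calcium-binding protein of fast-spiking inhibitory neurons in many brain areas. Relay neurons of the anterior thalamic nuclei are glutamatergic and use the vesicular glutamate transporter Slc17a6. The neighbouring thalamic reticular nucleus is made of GABA neurons, many of which contain parvalbumin, and its axons inhibit relay neurons. In rodents most relay nuclei have few GABA interneurons of their own.

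Gad1 (ENSMUSG00000070880) lies on chromosome 2 at 70561303 to 70602014 of GRCm38.p6, where it overlaps Gad1os. Gad2 (ENSMUSG00000026787) lies on the same chromosome at 22621015 to 22693877 and overlaps the microRNA gene Mir3967. Slc32a1 (ENSMUSG00000037771) lies there too, at 158607260 to 158615747, and overlaps Gm14204. Pvalb (ENSMUSG00000005716) lies on chromosome 15 at 78191112 to 78206400 with no overlapping gene. Whether the counts used strand is not given in the sources used here, so counts from Gad1 and Slc32a1 cannot be told apart from those of their overlapping partners.

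The promoters of the 4 genes are shown because they differ in their content of CG, the dinucleotide whose methylation is read at many promoters. The sequences are from RefSeq on GRCm38.p6 and run from 250 bases before to 50 bases after a start site, with every CG in capitals. Pvalb has 2 annotated starts in the table, and gene counts do not tell which was used.
Gad1, chr2:70561879-70562178, plus strand: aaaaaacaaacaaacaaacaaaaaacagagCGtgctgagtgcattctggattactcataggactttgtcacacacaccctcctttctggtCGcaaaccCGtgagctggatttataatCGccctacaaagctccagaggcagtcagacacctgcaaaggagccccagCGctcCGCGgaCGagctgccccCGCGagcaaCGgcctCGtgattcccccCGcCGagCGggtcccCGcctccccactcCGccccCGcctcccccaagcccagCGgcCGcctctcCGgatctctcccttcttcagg
Gad2, chr2:22622077-22622376, plus strand: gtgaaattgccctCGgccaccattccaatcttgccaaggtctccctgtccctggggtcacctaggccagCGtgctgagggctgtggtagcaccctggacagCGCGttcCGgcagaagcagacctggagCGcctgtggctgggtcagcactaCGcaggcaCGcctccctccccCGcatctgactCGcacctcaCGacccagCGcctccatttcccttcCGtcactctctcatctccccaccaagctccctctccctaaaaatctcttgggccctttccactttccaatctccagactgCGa
Slc32a1, chr2:158610508-158610807, plus strand: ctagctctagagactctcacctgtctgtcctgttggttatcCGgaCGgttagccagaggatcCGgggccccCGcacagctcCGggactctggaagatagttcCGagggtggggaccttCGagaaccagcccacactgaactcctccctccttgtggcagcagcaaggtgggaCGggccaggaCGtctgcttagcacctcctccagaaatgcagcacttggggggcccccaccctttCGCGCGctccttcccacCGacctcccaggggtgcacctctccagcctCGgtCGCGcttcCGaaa
Pvalb outer start, chr15:78206351-78206650, minus strand: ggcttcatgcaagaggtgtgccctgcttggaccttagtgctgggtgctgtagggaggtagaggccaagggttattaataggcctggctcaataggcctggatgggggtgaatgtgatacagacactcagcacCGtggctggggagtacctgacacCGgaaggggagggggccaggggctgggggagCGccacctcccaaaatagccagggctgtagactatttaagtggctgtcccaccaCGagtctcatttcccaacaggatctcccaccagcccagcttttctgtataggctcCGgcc
Pvalb inner start, chr15:78204188-78204487, minus strand: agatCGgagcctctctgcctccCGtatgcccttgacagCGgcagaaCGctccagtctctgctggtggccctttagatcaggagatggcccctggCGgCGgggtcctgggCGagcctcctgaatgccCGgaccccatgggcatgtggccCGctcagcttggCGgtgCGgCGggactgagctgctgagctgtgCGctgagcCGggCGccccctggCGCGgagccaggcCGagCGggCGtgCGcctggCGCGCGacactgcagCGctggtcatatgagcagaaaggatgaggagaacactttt
Gad1 had 21 CG in its 300 bases, more than 75.2% of the 32851 mouse promoters in the table. Slc32a1 had 17 and Gad2 had 14, above 68.6% and 63.7% of promoters. The outer Pvalb start had 5 CG, more than only 38.0% of promoters, whereas the inner start had 25, more than 81.6%. The median promoter had 7, and 94.6% of promoters held at least 1. The sequence TATAAA, searched on both strands, was found in Gad1 only among the 5 windows and in 13.6% of all promoters. GGGCGG, searched in the same way, was also found in Gad1 only among the 5, and in 35.7% of all promoters.

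After removal of wells with fewer than 1000 genes, 904 cells remained, 103 from animal 1, 328 from animal 2 and 473 from animal 3. Median counts per cell were 49798, 8845 and 50474 in animals 1, 2 and 3, so animal 2 was sampled less deeply than the others. Slc17a6 had a count in 833 of the 904 cells (92.1%) and Tcf7l2 in 853 (94.4%), so genes of relay neurons were present in nearly all cells of the labelled tissue. The 3 sections held 7827 spots, with median counts per spot of 8990.5 in section 2, 5313 in section 5 and 7210 in section 6. All 384 well barcodes were used on more than 1 plate, and 2393 of the 4182 spot barcodes occurred in more than 1 section, so a cell or spot was identified by its plate or section together with its barcode. The animals behind the sections are not given in the sources used here. With the section as a block, the p-values below set the difference between spot classes against its spread over sections, which may be technical.

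GABA genes were found in few of the dissected cells. Gad1 had a count in 19 of 904 cells (2.10%, exact 95% binomial interval 1.27 to 3.26%), with 5, 1 and 13 cells in animals 1, 2 and 3. Gad2 had a count in 25 cells (2.77%, 1.80 to 4.06%), with 7, 3 and 15 in the same animals. Slc32a1 had a count in 13 cells (1.44%, 0.768 to 2.45%), with 5, 2 and 6. Pvalb stood apart with 78 cells (8.63%, 6.88 to 10.7%), which were 4 cells of animal 1 (3.88%), 18 of animal 2 (5.49%) and 56 of animal 3 (11.8%). With every cell of at least 5000 counts thinned to 5000, which kept 841 cells (103, 267 and 471 in animals 1, 2 and 3), the shares were 1.19% for Gad1, 1.31% for Gad2, 0.832% for Slc32a1 and 3.80% for Pvalb. The thinned Pvalb shares were 1.94% in animal 1, 2.996% in animal 2 and 4.67% in animal 3, in the same order as before. Outside the cells with at least 2 GABA genes and an oligodendrocyte-like cluster, both described below, the thinned shares were 0, 2.73 and 4.42%. Before thinning the shares of these remaining cells were 2.02, 5.40 and 11.7%. The binomial intervals cover counting error only, and whether reads or molecules were counted is not given in the sources used here.

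These shares were set beside those in oligodendrocyte-like cells and in wells without a cell. Among the 27 cells of an oligodendrocyte-like cluster led by Opalin and Mog, with a median of 25264 counts per cell, Gad1 had no count, which allows a share of up to 11.1%. Gad2, Slc32a1 and Pvalb each had a count in 1 of these 27 cells (3.70%, exact 95% interval 0.0937 to 19.0%). Slc17a6 had a count in 12 of the same 27 cells (44.4%) and Tcf7l2 in 13 (48.1%), so this cluster is not a clean background. Its cell with Pvalb had 123 counts of Slc17a6 and 69 of Tcf7l2. The cell with Slc32a1 had 19 and 10, and the cell with Gad2 had 1 and 2. Where these counts came from was not tested. With the intervals above, the Gad1, Gad2 and Slc32a1 shares over all cells cannot be told from the share in oligodendrocyte-like cells. Most of the cells with at least 2 of these genes, described below, were set apart by the number of counts in each. The 56 wells that held spike-in RNA without a cell, with a median of 152.5 counts, had no count of the 4 genes, which allows a share of up to 5.36%. The 16 blank wells had none either, which allows up to 18.75%.

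The counts of the 4 genes were concentrated in a few cells. The top 5 cells held 95.6% of the 498 Gad1 counts, 85.9% of the 839 Gad2 counts, 86.8% of the 91 Slc32a1 counts and 70.3% of the 1541 Pvalb counts. The same share was 3.72% for Slc17a6 and 3.31% for Tcf7l2, and its median over the 13168 genes with at least 100 counts was 15.8%. Thus the GABA genes were carried by single cells with many counts, and most other cells with a count had very few. Of the 904 cells, 861 had no count of Gad1, Gad2 or Slc32a1, 34 had counts of exactly 1 of them and 9 had counts of at least 2. In 28 of the 34 cells the gene had a single count, and 26 of those 28 also had Slc17a6.

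The 9 cells with at least 2 GABA genes were 2 of animal 1, 2 of animal 2 and 5 of animal 3. In animal 1, the first such cell had 11 counts of Gad1, 90 of Gad2, 7 of Slc32a1 and 106 of Pvalb, with 1 count of Slc17a6 and none of Tcf7l2. The second had 121 counts of Gad1, 144 of Gad2, 25 of Slc32a1 and 262 of Pvalb, with no Slc17a6 and 1 count of Tcf7l2. Both therefore paired high GABA genes with high Pvalb and with at most 1 count of Slc17a6 or Tcf7l2. Ramp3, a receptor activity modifying protein from the thalamic marker list, had 14 and 128 counts in these cells. The Pvalb-rich cells of animals 2 and 3 described next had 17 and 115. Ramp3 had a count in 5 of the 9 cells, and in 245 of 836 cells with no GABA gene outside the oligodendrocyte-like cluster. It was also among the leading genes of the spots led by Six3 and Ret, described below. In animal 2, a cell with 22 counts of Gad1, 24 of Gad2, 2 of Slc32a1 and 71 of Pvalb had neither Slc17a6 nor Tcf7l2. The other cell of that animal had 11 counts of Gad2 and 1 of Slc32a1 but no Gad1 and no Pvalb. In animal 3, the cell with the most GABA counts had 293 counts of Gad1, 298 of Gad2, 31 of Slc32a1 and 611 of Pvalb, and no Slc17a6 or Tcf7l2. These 4 cells with Pvalb above 10 counts thus came from all 3 animals. Another cell of animal 3 had 29 counts of Gad1, 105 of Gad2 and 4 of Slc32a1, and another 8 of Gad1 and 84 of Gad2, and both lacked Pvalb, Slc17a6 and Tcf7l2. Cells with many counts of GABA genes therefore occurred with and without Pvalb. The last 2 cells were different, because relay neuron genes led in them. In the first of these, Gad1 and Gad2 had 1 count each beside 48 of Slc17a6 and 100 of Tcf7l2. In the second, Slc32a1 had 11 counts, Gad1 2 and Pvalb 1, beside 13 of Slc17a6 and 23 of Tcf7l2.

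**Figure D1:**
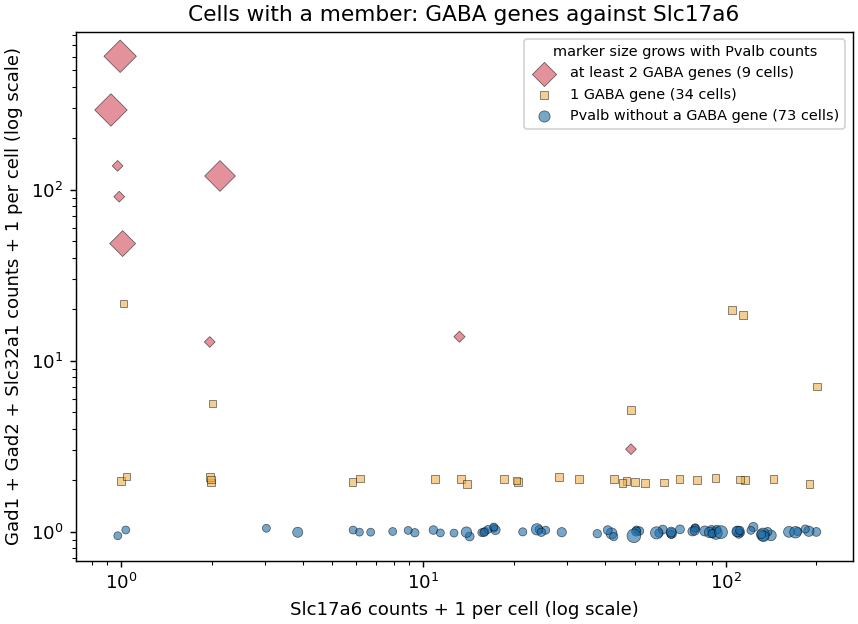
Summed counts of Gad1, Gad2 and Slc32a1 plus 1 (vertical log axis) against counts of Slc17a6 plus 1 (horizontal log axis), 1 point per cell, with a small random shift to separate points. Diamonds are the 9 cells with at least 2 GABA genes, squares the 34 cells with 1, and circles the 73 cells with Pvalb and no GABA gene, and the marker size grows with the Pvalb count up to a limit. Cells with many GABA counts sit at the upper left with few or no Slc17a6 counts, and 71 of the 73 Pvalb cells without GABA genes sit along the bottom with Slc17a6.

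Of the 20 transcription factors of GABA neurons measured in single cells, 9 had a count in at least 1 of the 9 cells and 11 had none. The 9 cells include the 2 in which relay neuron genes led. The genes named next were chosen after their values were seen. Six3, a homeobox gene of forebrain GABA neurons, had 109, 22, 10 and 66 counts in the 4 cells with the most Pvalb. Sst, the peptide somatostatin, had 158, 14, 9 and 202 counts in the same cells. Kcnc1, a potassium channel that shortens action potentials, had 60, 60, 14 and 190. All 4 cells thus had all 3 genes. Over the 9 cells, Six3 had a count in 6, against 6 of the 836 cells with no GABA gene outside the oligodendrocyte-like cluster, and Sst in 5, against 5 of the 836. Meis2, a homeobox factor of ventral forebrain and reticular neurons, had a count in 4 of the 9 and in 20 of the 836, and Isl1, a LIM homeobox factor, in 3 and in 8. Dlx5, a homeobox factor of forebrain GABA neurons, had a count in 2 of the 9 and in none of the 836, which allows a share of up to 0.359%. Spp1, which encodes osteopontin, had a count in 1 of the 9 and in 83 of the 836. Kcnc1 did not separate the cells in this way, since it had a count in 9 of the 9 and in 605 of the 836. These genes are given as a description, since the 9 cells were picked by their GABA genes and no test was made between cells.

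Of the 34 cells with exactly 1 GABA gene, 6 had at least 4 counts of it. Gad2 had 19, 20, 6 and 4 counts in cells with 115, 107, 218 and 46 counts of Slc17a6. Counts of a GABA gene and of the glutamate transporter were thus found in the same wells. The plates of the cells with 19, 6 and 4 counts also held cells with 144, 84 and 105 counts of Gad2. The plate of the cell with 20 counts held none of the 9 cells above. PCR products were pooled by plate, and the part of this pooling in these Gad2 counts was not tested. In another cell Gad2 had 21 counts with no Slc17a6, beside 78 counts of the opioid peptide gene Penk and 9 of Meis2. In the sixth cell Slc32a1 had 5 counts beside 1 of Slc17a6, 11 of Tcf7l2 and 6 of Lhx6, a factor of cortical and striatal interneurons. The cell described above with 11 counts of Slc32a1 and 23 of Tcf7l2 had 7 counts of Lhx6.

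Pvalb was found mostly in cells without GABA genes. Of the 78 Pvalb cells, 73 had no count of Gad1, Gad2 or Slc32a1, and 71 of these 73 had Slc17a6, 71 had Tcf7l2 and 69 had both. Counts of Pvalb in the 73 cells ran from 1 to 33 with a median of 4, with 19 cells at 1 count and 19 at 10 or more. The 9 cells with at least 2 GABA genes held 2.16 Pvalb counts per Gad1 count, and the other 895 cells held 44.5. Gad1 was among the genes that chose the 9 cells, so that choice itself favoured a higher ratio in the others. The value of 44.5 rests on 11 Gad1 counts and, for 453 of its 490 Pvalb counts, on animal 3. By animal, the 9 cells and the others held 2.79 and 0.667 in animal 1, where the others had only 2 Pvalb and 3 Gad1 counts, and 1.84 and 56.6 in animal 3. In animal 2 the ratio was 3.23 in its cells with at least 2 GABA genes, and its other cells had 35 Pvalb counts and no Gad1 count. On the 5 plates that gave none of the 9 cells, Pvalb had a count in 4 of 84, 6 of 83, 7 of 74, 14 of 82 and 11 of 74 cells. PCR products were pooled by plate, and the part of this pooling in the Pvalb counts was not tested.

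The cells with Pvalb were unevenly spread over the clusters, which were made without the 4 genes and are numbered by size. Cells with at least 2 GABA genes were left out of the following shares. In cluster 1, led by Car4, Itga4 and Ccdc141, Pvalb had a count in 58 of 428 cells (13.6%, exact 95% interval 10.5 to 17.2%). By animal this was 2 of 54 (3.70%), 15 of 177 (8.47%) and 41 of 197 (20.8%) in animals 1, 2 and 3. In cluster 2, led by Col16a1, Adgrg6 and Foxp1, Pvalb had a count in 0 of 229 cells, which allows a share of up to 1.31%. Median counts per cell over all animals were 25897 in cluster 1 and 23791 in cluster 2. Within each animal cluster 1 was deeper, with medians of 49337, 9380 and 57734 in animals 1, 2 and 3, against 38996, 6359 and 40988.5 in cluster 2. In cluster 3, led by Penk, Fbln1 and Calb2, 4 of 169 cells had Pvalb (2.37%), and none did after thinning to 5000 counts. The oligodendrocyte-like cells had 3.70%, from a cell that also held Slc17a6 and Tcf7l2. In cluster 4, led by C1ql2, Padi1 and Flt1, 10 of 42 cells had Pvalb (23.8%, 12.1 to 39.5%), but these cells had a median of 112938 counts. After thinning, the shares were 6.35% in cluster 1 and 4.76% in cluster 4, so the higher share of cluster 4 was not present at equal depth. The interval of cluster 1 overlaps that of the oligodendrocyte-like cells, which has 27 cells behind it, and it lies above the limit for cluster 2.

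**Figure D2:**
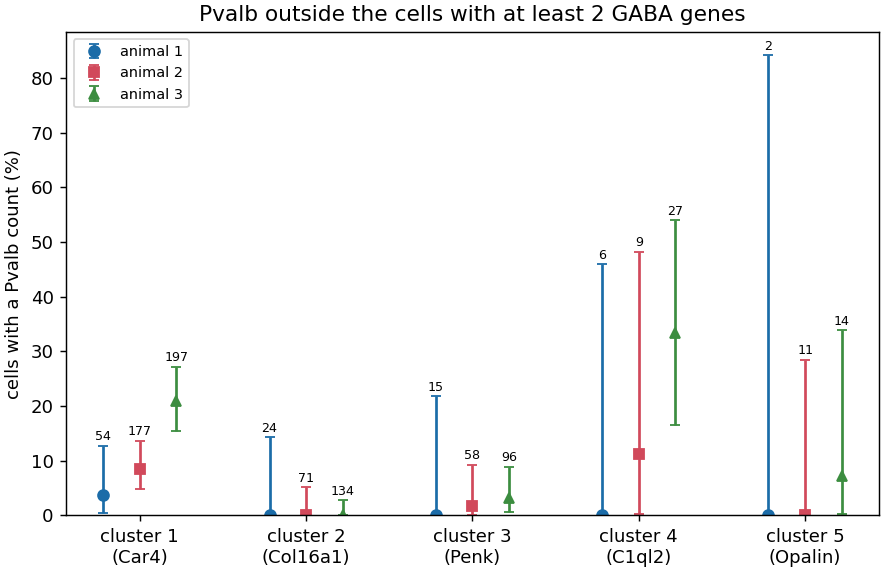
Share of cells with a Pvalb count (percent) in each cell cluster and animal, among cells with fewer than 2 GABA genes. Points are shares, error bars are exact 95% binomial intervals, and the number above each error bar is the number of cells. Cluster 1 reaches 20.8% in animal 3, cluster 2 is at 0, and cluster 4 rests on few cells.

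In the sections, all 4 genes were lower in Tcf7l2-positive spots than in Tcf7l2-negative spots, while Slc17a6 was higher. There were 1583 positive spots (586, 439 and 558 in sections 2, 5 and 6) and 6244 negative spots (2208, 2101 and 1935). Counts were summed per section and class, and edgeR's quasi-likelihood test with the section as a block and Benjamini-Hochberg adjustment was fitted over 13998 genes. Levels are counts per 1000000 summed counts (CPM), and folds are log2 ratios of positive over negative spots. Of all genes tested, 22.7% passed the adjusted threshold of 0.05 in either direction and 11.7% passed as lower in positive spots, and all 4 genes were among the latter. Fewer cells of a type and less RNA per cell cannot be told apart in spots.

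Gad1 had 254, 259.9 and 251 CPM in the positive spots of sections 2, 5 and 6, against 351, 349 and 369.9 CPM in the negative spots, so the ranges did not overlap. It fell by 0.53 ± 0.05 on the log2 scale (SE, adjusted p = 1.92e-07, edgeR). Gad2 had 210.1, 215 and 173 CPM in positive spots, against 254, 255 and 242 CPM in negative spots, again without overlap. It fell by 0.37 ± 0.05 (adjusted p = 4.25e-05, edgeR). Slc32a1 had 138, 114 and 106 CPM in positive spots, against 176, 162 and 159.6 CPM in negative spots, and fell by 0.51 ± 0.06 (adjusted p = 2.61e-06, edgeR). Pvalb had 190.5, 161 and 203 CPM in positive spots, against 237, 211 and 273 CPM in negative spots. Each section had less Pvalb in its positive spots, by 0.42 ± 0.05 on the log2 scale (adjusted p = 5.34e-06, edgeR), and the highest positive section stayed below the lowest negative one. Slc17a6 had 221, 239 and 249 CPM in positive spots, against 30.5, 33.7 and 46.2 CPM in negative spots, which was 2.66 ± 0.07 higher on the log2 scale (adjusted p = 3.58e-14, edgeR).

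A count of the GABA genes was still common among Tcf7l2-positive spots. Gad1 had a count in 909 positive and 4682 negative spots, or 56.6 ± 10.5% and 74.9 ± 7.69% (SD over 3 sections). Gad2 had a count in 51.4 ± 10.7% of positive and 63.7 ± 7.38% of negative spots. Slc32a1 had a count in 41.2 ± 11.01% and 57.0 ± 8.70%, in the same order. Pvalb differed from these, with 47.3 ± 11.8% of positive and 47.1 ± 9.70% of negative spots. With spots thinned to 2000 counts the shares were 31.7 and 43.6% for Gad1, 26.5 and 33.8% for Gad2, 18.1 and 26.4% for Slc32a1, and 23.0 and 24.7% for Pvalb, positive spots first each time. The shares for Pvalb thus differed by less than the spread between sections, while its summed level was lower in positive spots. None of the 4 genes had a count in 305 of 1583 positive spots (19.3%) and in 534 of 6244 negative spots (8.55%). All 4 had a count in 288 positive spots (18.2%) and in 1265 negative spots (20.3%).

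The mean levels of the 4 genes were lower in spots with 3 or more counts of Tcf7l2. Gad1 averaged 357, 341, 109.6 and 38.6 CPM in spots with 0, 1 to 2, 3 to 9 and 10 or more counts of Tcf7l2, over the 3 sections. Gad2 averaged 250.2, 259, 97.1 and 35.0 CPM, and Slc32a1 166, 159, 53.1 and 7.95 CPM, in the same bins. Pvalb averaged 240.3, 226, 119 and 57.6 CPM. The means of the first 2 bins were thus close together, and those of the last 2 were lower. The bins held 6244, 1022, 494 and 67 spots, and in the last bin Slc32a1 had no count in sections 5 and 6. Slc17a6 went the other way, at 36.8, 101, 465 and 599 CPM. With a minimum of 3 counts of Tcf7l2, Gad1 averaged 99.5 ± 21.1 CPM in positive spots and 354 ± 12.1 CPM in all other spots (SD, n = 3 sections), a fall of 1.85 ± 0.10 on the log2 scale. Under the same rule Slc32a1 fell by 1.74 ± 0.11, Gad2 by 1.50 ± 0.09 and Pvalb by 1.11 ± 0.11, and 26.2% of all genes passed. Marker lists of other regions moved with these levels. All 7 striatal markers tested were lower in Tcf7l2-positive spots (summed levels 535 to 671 CPM, against 1509 to 1573 CPM in negative spots), and 8 of 8 cortical glutamatergic markers were lower (626 to 789 CPM against 1113 to 1319.6 CPM). Of 7 markers of the reticular nucleus, 3 fell and 1 rose (200.5 to 226 CPM against 283 to 333 CPM). Their part in the result was not tested.

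**Figure D3:**
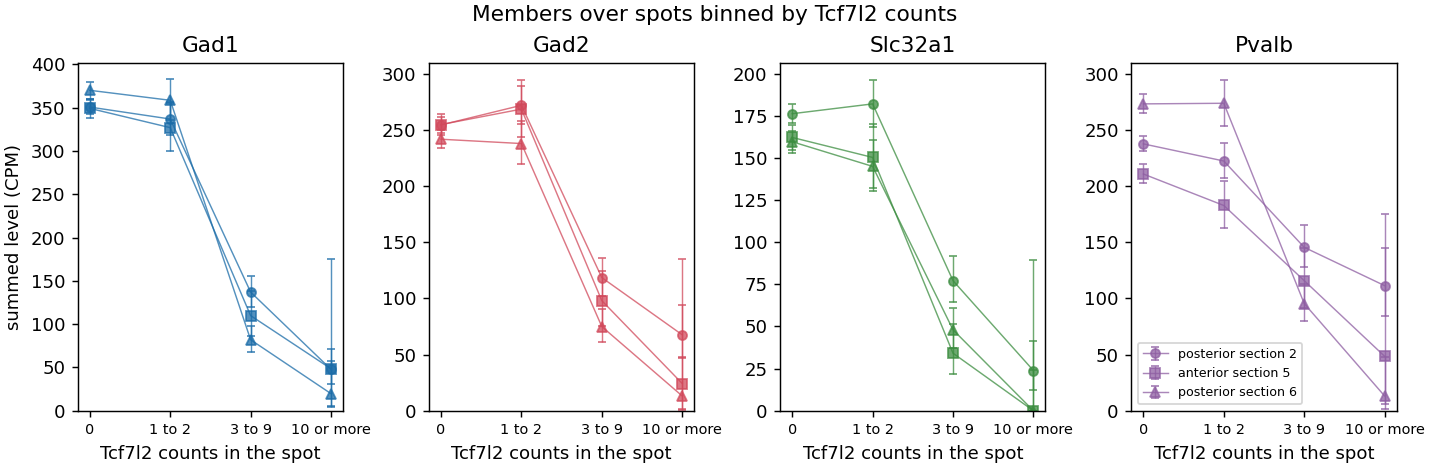
Level (CPM) of Gad1, Gad2, Slc32a1 and Pvalb in spots with 0, 1 to 2, 3 to 9 and 10 or more counts of Tcf7l2, 1 point per section with exact 95% Poisson intervals. All 4 genes are lower at 3 to 9 counts than at 0 in every section, and their means are lowest at 10 or more, where the intervals are wide.

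Other genes of the GABA system did not fall together with the 4 genes in Tcf7l2-positive spots. Of 12 genes for GABA uptake, breakdown and glutamate supply, 4 rose, none fell and 8 did not pass, with a median log2 ratio of 0.13 against 0.0039 over all genes. Over all genes tested, 10.9% passed as higher in positive spots and 11.7% as lower. Slc6a11, the GABA transporter found mainly on astrocytes, averaged 202 ± 11.2 CPM in positive spots and 90.8 ± 8.12 CPM in negative spots, 1.12 ± 0.05 higher on the log2 scale (adjusted p = 6.07e-11, edgeR). Slc38a1, a glutamine transporter, rose by 0.32 and Abat, which breaks GABA down, by 0.17, a call that was lost at 3 or more counts of Tcf7l2 and without section 5 (adjusted p = 0.271 and 0.0989, edgeR). Slc6a13, a GABA transporter of the brain's coverings and vessels, rose by 0.96, but was at -1.39 with 10 or more counts of Tcf7l2. All 5 markers of meningeal fibroblasts rose too (144 to 269 CPM in positive and 100.4 to 136 CPM in negative spots), and their part in the Slc6a13 result was not tested. Of the 16 GABA and glycine receptor genes tested, 6 rose, 3 fell and 7 did not pass, with a median of 0.10. Gabra4, a subunit of thalamic extrasynaptic receptors, rose by 0.76 and Gabrb1 by 0.48. Markers of astrocytes were split, with 3 of 6 higher and 1 lower (1732 to 2144 CPM in positive and 1779 to 2227 CPM in negative spots), and their part in the Slc6a11 result was not tested.

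Transcription factors of GABA neurons, peptide and subtype genes and fast-spiking genes were split in the same comparison. Falls were more frequent than rises in each of these 3 lists. The shares over all genes tested were 11.7% for falls and 10.9% for rises. Of 19 transcription factors tested (of 21 listed), 7 fell, 1 rose and 11 did not pass, with a median log2 ratio of -0.39. Meis2 averaged 62.6 ± 4.11 CPM in positive spots and 127 ± 11.2 CPM in negative spots and fell by 1.06. Dlx6, a homeobox factor of forebrain GABA neurons, fell by 1.06 too, whereas Otx2, a factor of midbrain and thalamic development, rose by 0.77. At 10 or more counts of Tcf7l2 Otx2 was at -0.15, and all 5 choroid plexus and ependyma markers rose with it in the main comparison (4911 to 8666 CPM against 4377 to 5291 CPM), whose part in the result was not tested. Six3 averaged 41.0 ± 3.16 and 49.5 ± 13.1 CPM and did not pass (adjusted p = 0.0662, edgeR). Of 14 peptide and interneuron subtype genes, 9 fell, 3 rose and 2 did not pass, with a median of -0.73. Penk fell by 1.45, Sst by 0.75 and Tac1, which encodes substance P, by 0.96, while Calb2, the calcium-binding protein calretinin, was 2.62 higher. Of 18 fast-spiking genes, 8 fell, 3 rose and 7 did not pass, with a median of -0.14. Scn4b, a sodium channel subunit, fell by 1.29, and Kcnc2, a potassium channel, and Nefh, a neurofilament subunit, rose by 1.01 and 0.75. Genes of the last 2 lists were not limited to GABA neurons. Of the 836 single cells with no GABA gene outside the oligodendrocyte-like cluster, 726 had Kcnc2, 600 Nefh, 139 Calb2 and 94 Scn4b. Penk had a count in 14 of them, Tac1 in 6 and Sst in 5.

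Spots were also grouped by expression without the 4 genes, which gave 12 groups, named here by their leading genes. The spots led by Six3 and Ret (215 spots) had the highest level of every one of the 4 genes. Gad1 averaged 1599.9 ± 234 CPM there, Gad2 1116 ± 155, Slc32a1 472 ± 64.9 and Pvalb 2971 ± 276 CPM (SD, n = 3 sections). The ranges did not overlap those of the next group for any of the 4. Only 35 of these 215 spots had Tcf7l2, and none had 3 or more counts of it. All 4 genes had a count in 186 of them (86.5%). The 7 reticular markers, which leave out the 4 genes but took part in the grouping, summed to 1118 CPM there, against 58.9 to 768 CPM in the other groups. The spots led by Lhx8 and Slc5a7, a homeobox factor and the choline transporter of cholinergic neurons, came next, with 717 ± 99.9 CPM of Gad1, 483 ± 71.4 of Gad2, 378 ± 43.5 of Slc32a1 and 360.1 ± 65.2 of Pvalb. For Gad2 their range overlapped that of the Otp and Oxt spots (479 ± 68.3 CPM), a group led by hypothalamic genes.

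The spots led by Shox2 and Gbx2 (654 spots, of which 627 had Tcf7l2) held the thalamic glutamatergic markers, with a summed level of 1961 CPM against 88.9 to 419.8 CPM in the other groups. They had the lowest means of the 3 GABA genes. Gad1 averaged 67.4 ± 26.3 CPM, Gad2 59.6 ± 20.6 and Slc32a1 27.7 ± 14.5 CPM there, and the ranges overlapped those of the Ttr spots, a group led by a choroid plexus gene. Pvalb did not follow this order. It averaged 123 ± 35.3 CPM in the Shox2 and Gbx2 spots, the sixth highest of 12, and overlapped the groups next to it on both sides. The lowest Pvalb was in the Lmo3 spots, with 42.6 ± 4.02 CPM, followed by the spots led by the striatal genes Adora2a and Pde10a with 53.8 ± 20.9 CPM, whose ranges overlapped. The Adora2a and Pde10a spots had the third highest Gad1, with 436 ± 23.7 CPM, so high GABA genes and low Pvalb stood side by side there. None of the 4 genes had a count in 218 of the 654 Shox2 and Gbx2 spots (33.3%), and all 4 had in 32.

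**Figure D4:**
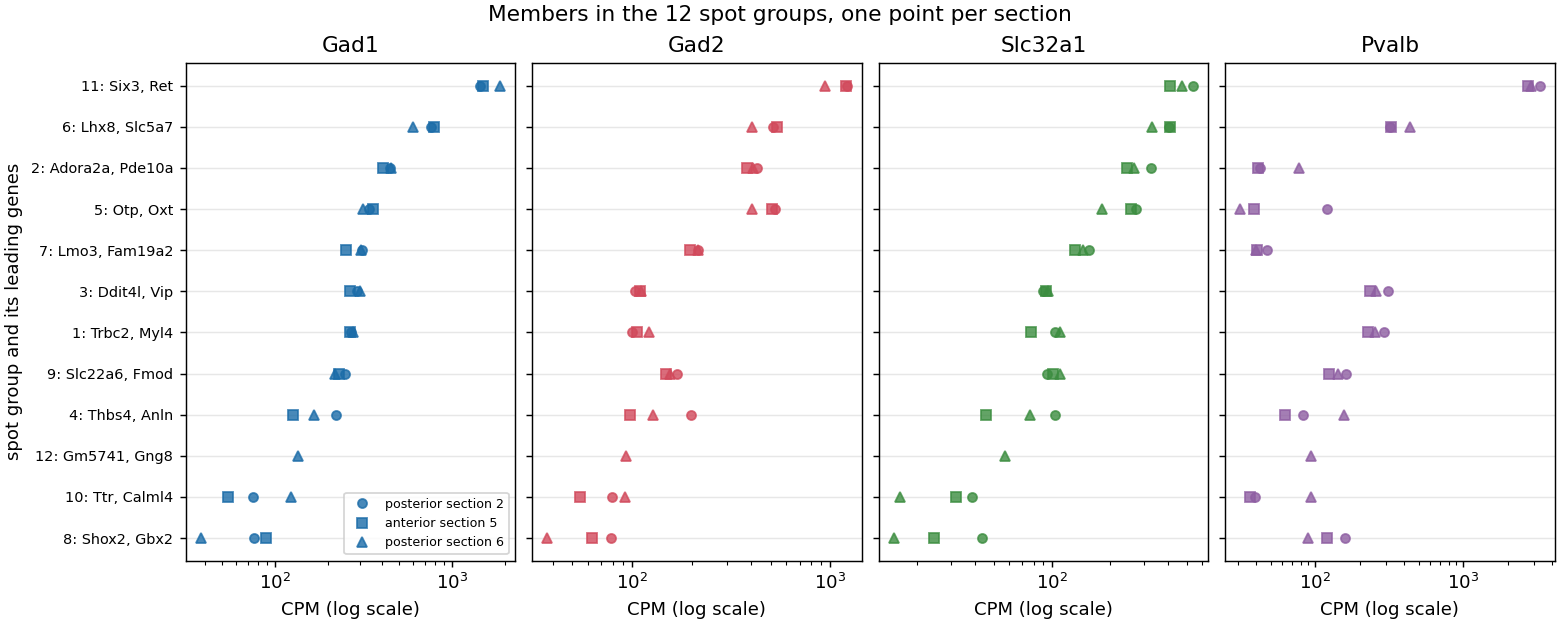
Level (CPM, log axis) of Gad1, Gad2, Slc32a1 and Pvalb in the 12 spot groups, 1 point per section, with groups from the highest Gad1 at the top to the lowest at the bottom, leaving out sections with fewer than 20 spots of a group. The Six3 and Ret spots are highest for all 4 genes, and the Shox2 and Gbx2 spots are lowest for the GABA genes but not for Pvalb.

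The ratio of Pvalb to Gad1 counts sorted the groups in another way. In the Shox2 and Gbx2 spots it was 2.11, 1.36 and 2.35 in sections 2, 5 and 6. The Six3 and Ret spots had 2.27, 1.85 and 1.54, so the ranges of these groups overlapped. The groups led by Trbc2 and Myl4 and by Ddit4l and Vip had 1.09, 0.857 and 0.912 and 1.06, 0.886 and 0.852. The Lhx8 and Slc5a7 spots had 0.420, 0.413 and 0.722, and the Adora2a and Pde10a spots 0.0944, 0.100 and 0.172. In every section the ratio in the Shox2 and Gbx2 spots was thus above that of these 4 last groups.

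**Figure D5:**
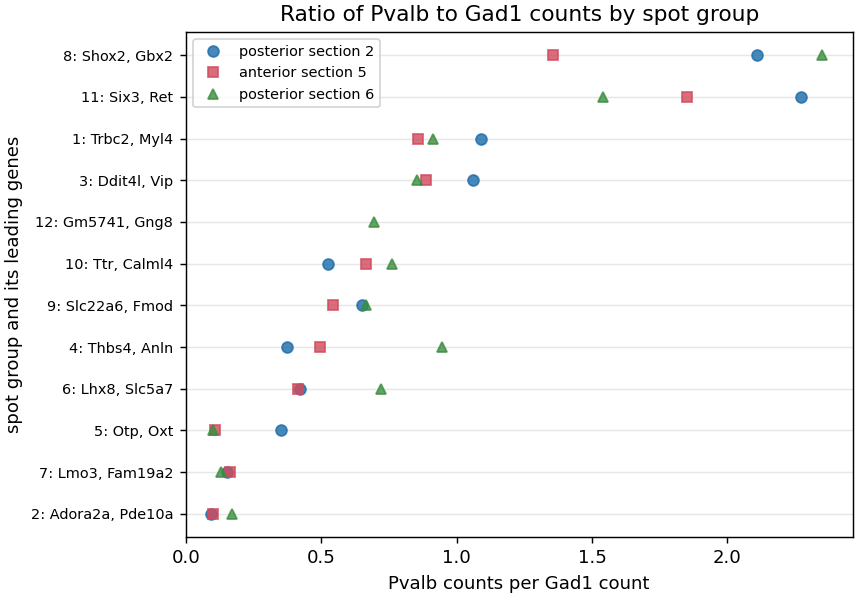
Pvalb counts per Gad1 count in each spot group, 1 point per section. The Shox2 and Gbx2 spots and the Six3 and Ret spots lie between 1.36 and 2.35, and the Adora2a and Pde10a spots lie below 0.2.

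The counts of the 4 genes in Tcf7l2-positive spots came largely from groups other than the Shox2 and Gbx2 spots. The Shox2 and Gbx2 spots were 39.6% of the positive spots and held 9.02% of their Gad1 counts, 11.2% of Gad2, 8.53% of Slc32a1 and 24.3% of Pvalb. The Lhx8 and Slc5a7 spots were 12.8% of the positive spots and held 30.9% of Gad1, 29.1% of Gad2, 35.1% of Slc32a1 and 16.1% of Pvalb. The Six3 and Ret spots were 2.21% of the positive spots and held 10.9% of Gad1 and 24.98% of Pvalb. Over all spots, the top 1% of spots by Pvalb held 18.8, 20.7 and 18.3% of its counts in sections 2, 5 and 6, against a median over all genes of 9.93, 12.5 and 10.6%. Of these top spots, 23 of 28, 23 of 26 and 24 of 25 were Six3 and Ret spots. For Gad1 the top 1% held 7.38, 8.15 and 9.16% of the counts, below the median gene in each section. The same share was 15.8, 17.2 and 13.1% for Slc17a6 and 20.1, 20.2 and 17.1% for Tcf7l2. By this measure Gad1 was spread more evenly over spots than Pvalb, Slc17a6 and Tcf7l2. The cells came from dissected anterior thalamic nuclei and the spots from sections that also held other regions. The concentration over cells and that over spots are therefore not directly comparable.

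Tcf7l2-positive spots with GABA genes were next set against those without, to ask what else was found in the same spots. Spots with counts of at least 2 of Gad1, Gad2 and Slc32a1 numbered 790 (368, 175 and 247 in sections 2, 5 and 6) and spots with none 416 (86, 149 and 181). Median counts per spot were 9291, 5572 and 7073 in the first class and 9314.5, 4740 and 6572 in the second. Gad1, Gad2, Slc32a1 and Tcf7l2 chose the spots and were left out of the test. Of 10382 genes tested, 11% passed in either direction, 5.6% as higher and 5.36% as lower in spots with GABA genes. Pvalb was among the higher ones. It had 253, 260.3 and 362 CPM in spots with GABA genes, against 60.8, 62.8 and 50.6 CPM in spots without, so the lowest section with GABA genes was above the highest without. The log2 ratio was 2.37 ± 0.14 (SE, adjusted p = 1.16e-10, edgeR). Among spots with at least 3 counts of Tcf7l2, where 1.23% of 7489 genes passed in either direction, 0.681% as higher and 0.547% as lower, Pvalb had 219, 252 and 214 CPM with GABA genes, against 60.3, 75.6 and 46.7 CPM without. The log2 ratio there was 1.97 ± 0.19 (adjusted p = 7.49e-11, edgeR).

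Most transcription factors of GABA neurons that were tested, and most peptide and subtype genes, were higher in the same spots. Of 12 transcription factors tested (of 21 listed), 9 rose, 1 fell and 2 did not pass, with a median log2 ratio of 2.76 against -0.0047 over all genes. Six3 averaged 61.3 ± 14.4 CPM in spots with GABA genes and 19.2 ± 10.7 CPM in spots without and rose by 1.83. Meis2 rose by 2.78. Lhx6 had 165 counts in spots with GABA genes and 1 count in spots without. Of 14 peptide and subtype genes, 11 rose and 3 fell, with a median of 1.90. Sst averaged 320.3 ± 63.0 CPM with GABA genes and 61.6 ± 13.2 CPM without and rose by 2.42, Penk rose by 3.33 and Tac1 by 2.75, while Calb2 fell by 2.02. Of 18 fast-spiking genes, 6 rose, 2 fell and 10 did not pass, with a median of 0.22. Syt2, a calcium sensor of fast inhibitory synapses, rose by 2.32 and Scn4b by 1.91, and Kcnc2 fell by 0.76. With spots chosen at 5 Tcf7l2 counts per 10000, Scn4b was at -0.028 and Kcnc2 at 0.11, and neither passed.

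The wider GABA system moved less in this comparison. Of 11 genes for uptake, breakdown and supply, 3 rose, 1 fell and 7 did not pass, with a median of 0.19. Abat averaged 303 ± 12.2 CPM with GABA genes and 217 ± 25.3 CPM without and rose by 0.49, and Pdxk, a kinase that makes the vitamin B6 cofactor of the glutamate decarboxylases, rose by 0.42. Of 15 receptor genes, 3 rose, 5 fell and 7 did not pass, with a median of -0.05. Gabra4 fell by 1.29, Gabrd, which pairs with it in extrasynaptic receptors, by 0.83, and Gabbr2, a subunit of the GABA-B receptor, by 0.74.

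Markers of other cell types moved with the presence of GABA genes as well. All 7 striatal markers tested rose (873 to 1014 CPM with GABA genes, against 125 to 245 CPM without), as did all 7 reticular markers (267 to 363 CPM against 53.8 to 105 CPM). All 6 thalamic glutamatergic markers fell (504 to 555 CPM against 1412 to 1919 CPM), and Slc17a6 fell by 1.96 ± 0.11. Their part in the Pvalb result was not tested. With at least 3 counts of Tcf7l2, 2 of 4 striatal and 4 of 4 reticular markers tested rose, and Sst rose by 2.33, Meis2 by 2.89 and Six3 by 1.57. None of the 14 fast-spiking genes tested there passed.

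The converse was asked within the Shox2 and Gbx2 spots, a comparison that was added after the values above had been seen. Spots with a Pvalb count (132, 75 and 85 in sections 2, 5 and 6) were set against spots without (77, 124 and 161), with median counts of 9248, 4489 and 6582 and of 9771, 4875 and 6492. Of 8625 genes, 0.568% passed in either direction and 0.348% passed as higher with Pvalb, and all 3 GABA genes were among the latter. Gad1 had 102, 137 and 65.4 CPM in spots with Pvalb, against 33.3, 60.9 and 23.8 CPM in spots without, so the ranges of the classes did not overlap. Its log2 ratio was 1.42 ± 0.19 (adjusted p = 1.48e-10, edgeR). Slc32a1 averaged 40.7 ± 16.8 CPM with Pvalb and 14.9 ± 4.99 CPM without, 1.50 ± 0.29 higher (adjusted p = 0.000108, edgeR). Gad2 averaged 79.9 ± 23.4 CPM with Pvalb and 42.4 ± 11.5 CPM without, 0.91 ± 0.19 higher (adjusted p = 0.000957, edgeR). Without the section as a block none of the 3 passed (adjusted p = 0.163 for Gad1, 0.742 for Gad2 and 0.163 for Slc32a1), and without section 2 Gad2 and Slc32a1 did not (adjusted p = 0.130 and 0.535). Leaving out section 5 also ended the call of Gad2 (adjusted p = 0.100). With DESeq2 Gad1 passed (adjusted p = 0.0353), and Gad2 and Slc32a1 did not (adjusted p = 1.00 for both).

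Six3 and Sst were higher in the same Pvalb spots of the Shox2 and Gbx2 group, with calls that depended on the fit. Six3 averaged 41.5 ± 13.1 CPM with Pvalb and 14.99 ± 6.47 CPM without, a log2 ratio of 1.51 ± 0.30 (adjusted p = 0.000314, edgeR). Sst averaged 124 ± 30.1 CPM and 61.3 ± 6.48 CPM, in the same order, a ratio of 1.02 ± 0.16 (adjusted p = 1.3e-07, edgeR). Without the block neither passed (adjusted p = 0.266 for Six3 and 0.104 for Sst), nor with DESeq2 (1.00 and 0.535), and Six3 did not pass without section 2 or section 5 (0.153 and 0.0513). Calb2 fell by 0.80, a call kept with DESeq2 and lost without the block (adjusted p = 0.936). Slc17a6 averaged 468 ± 25.3 CPM with Pvalb and 569 ± 23.2 CPM without and did not pass (adjusted p = 0.121, edgeR). None of the 16 fast-spiking genes, the 15 receptor genes and the 11 uptake and supply genes tested passed. Of 8 oligodendrocyte markers 5 rose (7154 to 7820 CPM with Pvalb, against 5137 to 6229 CPM without), and their part in the result was not tested. Of 7 thalamic markers only Gbx2 passed, and it fell by 0.61. Without the block 0 of all genes passed with edgeR, and 229 had an unadjusted p under 0.05.

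Across all spots, the genes most like each of the 4 were found by the mean over sections of the within-section correlation of log counts, over 13005 genes. Spots of a section share a library and their depth, so these values are a description. Gad1 was most like Gad2 (r = 0.468), followed by Slc32a1 (0.448), Pvalb (0.331), the synaptic vesicle regulator Cplx1 (0.263) and Six3 (0.258). Gad2 was most like Gad1, then Slc32a1 (0.449), Six3 (0.336), Abat (0.274) and Nap1l5 (0.273). Slc32a1 was most like Gad2 and Gad1, then Abat (0.262), Penk (0.255) and Meis2 (0.245). Pvalb was most like Cplx1 (0.361), the nuclear receptor Esrrg (0.353), the vesicle protein Vamp1 (0.347), Gad1 (0.331) and the potassium channel subunit Kcnab3 (0.316). Its value with Gad2 was 0.132 and with Slc32a1 0.180, so among the GABA genes Pvalb was closest to Gad1.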

How the data were processed

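Counts came from hand-collected single cells and from 3 Visium sections. Both deposited expression tables are unnormalized counts, 1 column per well or per spot. Per the file headers, further deposited columns give the animal of each well and the section of each spot (other units). Per the submitters' processing notes, Seurat, Space Ranger and the builds NCBIM37 and mm10 were used. Per the labels, permeabilization of the 10 µm sections took 24 min. The aligner, the counter and whether molecules were counted are not given in the sources used here.

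No name links the 14 samples of cells in the labels to the 14 plates, so the animal number of the well table served as the replicate. Of 1216 wells with a cell, 9 with conflicting animal numbers and those under 1000 genes were left out, and no doublet caller was run. Groups of cells and spots were made without the 4 genes from 2000 variable genes, 30 components and 15 neighbours by the Leiden method at resolution 0.5 (scanpy 1.11.5, Python 3.11.15). Counts of spots were summed per section and class and tested with edgeR 4.0.16 (R 4.3.3; TMM, filterByExpr, quasi-likelihood F test, Benjamini-Hochberg over all genes tested). The section was a block, because both classes of spots lie in the same section. DESeq2 1.42.0, no block, no filter, other Tcf7l2 minimums, thinning and leaving out each section were alternatives. Tests were checked on simulated data.

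Named are the 4 genes, Tcf7l2 and Slc17a6, the 5 genes most like each of the 4, and up to 4 genes of smallest adjusted p per list. Other genes named beside single cells, and Six3 or Sst outside those 4, were chosen after their values were seen. The members, lists and 1000-gene minimum were chosen with earlier results of these data known. Some listed genes are not reported here.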

Additional observations from a re-analysis of the deposited data

Results flagged for a closer look

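Counts of 3 of the 4 genes appeared in wells outside the comparisons above, the 56 control wells named qRNA, which hold no collected cell and have a median of 25060.5 counts. Gad1 had 8 counts there, all in 1 well. Gad2 had 2 counts in 2 wells. Pvalb had 7 counts in 1 well. Slc32a1 had none, while Slc17a6 had 3 counts in 3 wells and Tcf7l2 had 75 in 21 wells. What RNA these wells held is not given in the sources used here.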

How the results depend on the processing

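The falls of Gad1, Gad2, Slc32a1 and Pvalb in Tcf7l2-positive spots and the higher Pvalb in positive spots with GABA genes passed in every alternative run, including without the replicate block on the section. The number of genes passing between positive and negative spots was 3172, but 1415 with DESeq2, 1445 without the replicate block and 1304 at 10 or more counts of Tcf7l2, and 2130 to 2856 when a section was left out. Slc6a13 reversed at 10 or more counts (-1.39) and at 5 per 10000 (-1.01), and Otx2 likewise (-0.15 and -0.27). Between positive spots with and without GABA genes 1137 genes passed, 353 with DESeq2, 599 without the block, 92 at 3 or more Tcf7l2 counts, 6 at 5 per 10000, and 827 to 1143 when a section was left out. At 5 per 10000, Scn4b (-0.028) and Kcnc2 (0.11) reversed. The minimum of 10 counts was not run there, since 2 sections had no such spot with GABA genes.

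Within the Shox2 and Gbx2 spots 49 genes passed, 3 with DESeq2, 25 in spots of at least 5000 counts, 20 with at least 2 Pvalb counts, and 13 to 44 when a section was left out. With edgeR without the block 0 passed, where 229 had an unadjusted p under 0.05. Gad1 was 1.42 without the block. Gad2 was 0.92 with DESeq2, 0.99 without the block, and 0.88 to 0.93 without section 5 or 2. Slc32a1 was 1.47 with DESeq2 (adjusted p = 1.00, as for Gad2), 1.65 without the block and 1.29 without section 2. The causes were not tested.

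The share of cells with Pvalb was 3.80% thinned to 5000 counts, 1.99% thinned to 2000, and 2.54% with at least 10 counts. The top 5 cells held 89.9, 71.9, 77.8 and 67.2% of Gad1, Gad2, Slc32a1 and Pvalb after scaling by depth, and the top 10 cells 98.2, 97.3, 96.7 and 78.1%. The top 5% of spots held 25.2, 25.6, 25.4 and 46.2%, and the top 1% 6.76% of Gad2 after scaling. Positive spots with Gad1, Gad2 and Slc32a1 were 35.2, 34.7 and 21.1% at 3 or more Tcf7l2 counts, 24.3, 25.6 and 7.94% at 10 or more (Pvalb 32.9%), 32.2, 31.8 and 17.96% at 5 per 10000, 36.0, 32.3 and 21.4% with at least 2 counts of the gene (Pvalb 24.4%), and 31.7, 26.5 and 18.1% thinned (Pvalb 23.0%). Levels in the spot groups kept within the spread when a section was left out. Depth limits the shares of single cells, and animal 2 had the lowest median count per cell.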
